A study of Homo sapiens with 2 samples.

Results

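The 5p and 3p arms of 3 miRNA precursors, miR-22, miR-335 and miR-32, were compared in H460 cells, a human lung carcinoma line of the non-small cell group. The 6 arms, hsa-miR-22-5p, hsa-miR-22-3p, hsa-miR-335-5p, hsa-miR-335-3p, hsa-miR-32-5p and hsa-miR-32-3p, are the probes that carry exactly these names, out of 1273 human miRNA probes. They were selected on the ratio of normalized intensity, sulforaphane over vehicle, in these same data, where the arms of a precursor differed, so the ratios below are a description and nothing here is a test. One array held RNA from cells given sulforaphane, an isothiocyanate from cruciferous vegetables, and one held RNA from cells given vehicle, both for 48 hours. Total RNA carried the Hy3 dye alone. With 1 array per condition there is no spread between cultures, no p-value can be given, and the number of arrays limits the precision. The labels used here state no dose.

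A miRNA precursor is a hairpin that Drosha and Dicer cut into a duplex of 2 short RNAs, one from its 5′ side (5p) and one from its 3′ side (3p). Argonaute usually keeps one of them as the guide, and the other is degraded. Bases 2 to 8 of the kept arm, its seed, pair with target mRNAs, so arms of one hairpin have different targets. The 3p arm of miR-22 is the one usually kept as the guide. The 5p arm of miR-335 represses SOX4 and tenascin C and is known as a metastasis suppressor in breast cancer. The 5p arm of miR-32 represses BCL2L11, which encodes the pro-apoptotic protein BIM.

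The mature sequences are shown because the array reads each arm through its own sequence. All 6 names matched RefSeq (GRCh38.p14), and the capitals mark the seed.
miR-22-5p: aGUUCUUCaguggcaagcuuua
miR-22-3p: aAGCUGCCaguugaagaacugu
miR-335-5p: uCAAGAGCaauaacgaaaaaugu
miR-335-3p: uUUUUCAUuauugcuccugacc
miR-32-5p: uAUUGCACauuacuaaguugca
miR-32-3p: cAAUUUAGugugugugauauuu

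The arms of miR-22 lie on the minus strand at chr17:1713952-1713973 (5p) and chr17:1713914-1713935 (3p), inside the long noncoding host gene MIR22HG. Those of miR-335 lie on the plus strand at chr7:130496126-130496148 (5p) and chr7:130496162-130496183 (3p), inside MEST, an imprinted protein-coding gene. Those of miR-32 lie on the minus strand at chr9:109046272-109046293 (5p) and chr9:109046231-109046252 (3p), inside the protein-coding gene TMEM245. The RefSeq hairpins of miR-335 and miR-32 show how each pair sits in one transcript, with the mature arms in capitals.
MIR335: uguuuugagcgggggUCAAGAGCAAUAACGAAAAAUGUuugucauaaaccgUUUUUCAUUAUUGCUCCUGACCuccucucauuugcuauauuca
MIR32: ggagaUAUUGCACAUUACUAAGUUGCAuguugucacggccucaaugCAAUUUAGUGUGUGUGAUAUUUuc

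The share of G and C in the arms ran from 27.3% in miR-32-3p to 45.5% in miR-22-3p. The median was 50.0% over the 996 human probes with a RefSeq mature sequence. It was 45.5%, the value of miR-22-3p, over the 136 of those above both detection floors. The miR-335 arms had 30.4% (5p) and 36.4% (3p), miR-32-5p had 31.8% and miR-22-5p had 40.9%. The seed of miR-32-5p is shared by 5 other human mature miRNAs in RefSeq. The seeds of the other 5 arms occur in no other of its 2370 mature names.

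Intensities are given on the authors' normalized scale, which is the background-subtracted intensity divided by 1 factor per array. The detection floor is the 95th percentile of 143 probes for viral miRNAs on the same array, a normalized 5.52 on the sulforaphane array (684 background-subtracted units) and 6.44 on the vehicle array (718 units). Above the floor on both arrays were 168 human probes (13.2%), and 5 of the 6 arms were among them. The exception was miR-32-5p, above the floor on the sulforaphane array alone. Ratios are log2 of sulforaphane over vehicle with nothing added, and 2-fold was the size rule. The 168 miRNAs had a median log2 ratio of 0.38 (quartiles 0.12 and 0.54), so a value of 0 on this scale lies below the middle of the profile. As a check of the label, 0 of 6 epithelial marker miRNAs, the miR-200 family and miR-205-5p, were above the floor on either array. Their summed intensities were 11.4 with sulforaphane and 10.2 with vehicle, so this list gave no positive check of the label. None of 7 blood markers was above it (sums 6.51 with sulforaphane and 5.33 with vehicle). Of 8 mesenchymal, endothelial and muscle markers, miR-126-3p was above it with sulforaphane alone and miR-206 with vehicle alone. The sums of the 8 were 14.8 with sulforaphane and 16.0 with vehicle. Also on that list, miR-199a-3p had no probe under that name. Of 3 neuronal and liver markers, 1 was with sulforaphane (sum 9.72) and 0 with vehicle (sum 12.0). The other arms of miR-205 and miR-122, miR-205-3p and miR-122-3p, were not on these lists and were above the floor on both arrays. On the authors' scale miR-205-3p read higher with sulforaphane and miR-122-3p lower. The part of these signals in the results was not tested.

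For miR-22, the arms pointed opposite ways. The 3p arm, the usual guide strand, read 185 with sulforaphane and 136 with vehicle, a log2 ratio of 0.44. The 5p arm read 5.71 with sulforaphane and 8.83 with vehicle, a log2 ratio of -0.63. The bright arm was thus higher and the dim arm lower on the sulforaphane array.

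The 2 arms of miR-22 also stood at very different distances from the floor. miR-22-3p read 33.5 times the floor with sulforaphane and 21.1 times with vehicle, and 5 human miRNA probes were brighter with sulforaphane and 4 with vehicle. miR-22-5p read 1.04 times the floor with sulforaphane and 1.37 times with vehicle, and 209 human miRNA probes were brighter with sulforaphane and 139 with vehicle. In background-subtracted units it read 708.5 with sulforaphane and 984 with vehicle. On the sulforaphane array 7 of the viral probes were brighter, against 3 on the vehicle array. Local background under the 5p spot was 59.5 units with sulforaphane and 41.5 with vehicle, far below the signal.

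For miR-335 the order was alike. miR-335-3p read 32.0 with sulforaphane and 22.0 with vehicle, a log2 ratio of 0.54. miR-335-5p, the arm that restrains metastasis in breast cancer models, read 6.38 with sulforaphane and 8.18 with vehicle, a log2 ratio of -0.36. The 3p arm was again the one higher with sulforaphane, by 1.45-fold, and neither arm reached 2-fold.

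The 3p arm of miR-335 was well separated from the floor, at 5.80 times it with sulforaphane and 3.42 times with vehicle. With sulforaphane 1 viral probe was brighter than the 3p arm, and with vehicle 2 were. The 5p arm stood at 1.16 times the floor with sulforaphane and 1.27 times with vehicle. In background-subtracted units that is 790.5 with sulforaphane and 912 with vehicle. Among viral probes, 6 were brighter than this arm with sulforaphane and 3 with vehicle.

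For miR-32, both arms were higher with sulforaphane on the authors' scale, so its arms differed there in size and in detection, not in sign. miR-32-3p, the arm not usually taken as the guide, read 33.4 with sulforaphane and 13.4 with vehicle, a log2 ratio of 1.32 (2.50-fold). This was the second highest ratio of the 168, and miR-32-3p is 1 of 6 at least 2-fold higher with sulforaphane (3.57%). In the other direction 2 of the 168 (1.19%) passed the size rule on the authors' scale, and none of the 6 arms did. Since the ratios chose the arms, nothing is read from these shares. The ratio of miR-32-3p fell short of 2-fold under spike-in scaling (0.62), and also under small RNA scaling (0.93), cyclic loess (0.94), summed scaling (0.98) and with the floor added (0.97). Under spike-in scaling miR-22-5p (-1.33) and miR-335-5p (-1.06) were past 2-fold lower, as was miR-22-5p under small RNA scaling (-1.02), and under spike-in scaling 0 of the 168 were past 2-fold higher and 9 lower.

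miR-32-5p, the arm that represses BCL2L11, read 9.14 with sulforaphane and 5.82 with vehicle. The vehicle value was 0.904 times the floor, so the ratio has only a bound. On the authors' scale, miR-32-5p was at least 1.42-fold higher with sulforaphane. Its measured log2 ratio was 0.65 on that scale and -0.05 under spike-in scaling. miR-32-3p stood at 6.05 times the floor with sulforaphane and 2.08 times with vehicle. Of the 3 precursors, miR-32 was the 1 whose dimmer arm also read higher with sulforaphane.

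**Figure D1:**
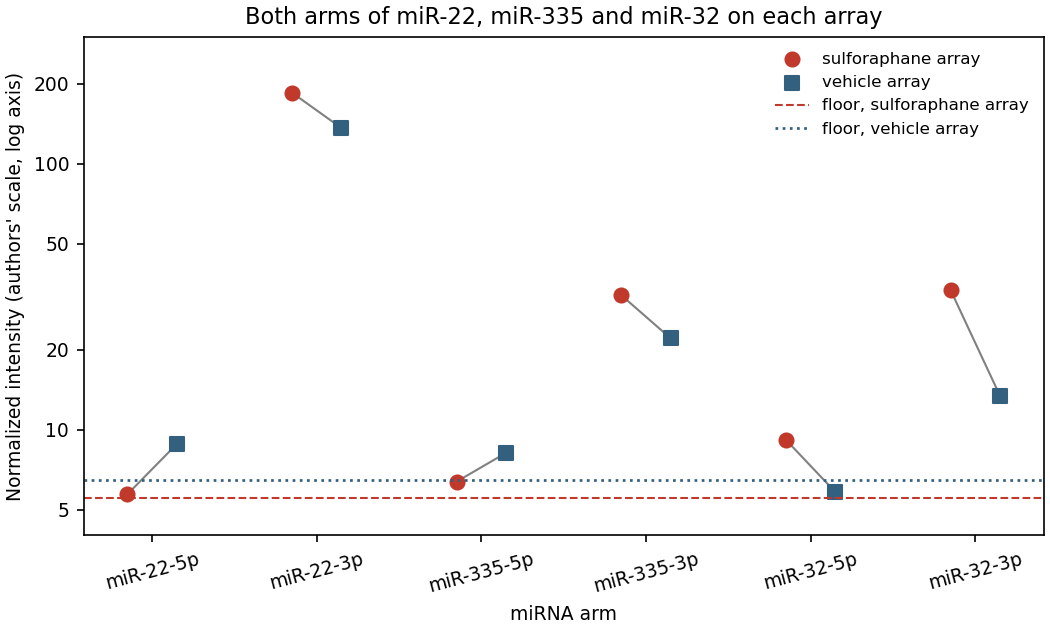
Normalized intensity (log axis) of each arm on the sulforaphane array (circles) and the vehicle array (squares), with the viral-probe floor of each array at 5.52 (dashed) and 6.44 (dotted). The 5p arms of miR-22 and miR-335 sit just above the floors and slope the other way from their 3p arms, while both arms of miR-32 are higher with sulforaphane.

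None of the 6 arms reached the scanner limit of 65535. The brightest foreground was 22969 units, for miR-22-3p with sulforaphane.

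The gap between the arms of one precursor does not depend on a factor per array, which cancels in it. The log2 ratio of the 5p arm minus that of the 3p arm was -1.07 for miR-22, -0.90 for miR-335 and -0.67 for miR-32. The last rests on a value under the vehicle floor. All 3 differences thus have the 5p arm on the lower side. Of the other precursors with both arms above both floors, miR-183, miR-423, miR-151a, miR-17 and miR-3607 had it there too. miR-30e, let-7i and miR-29a had the 5p arm on the higher side. The 3 precursors were chosen for their ratios, so nothing is read from the shared side. Put as brightness within an array, the 3p arm of miR-22 read 32.3 times its 5p arm with sulforaphane and 15.4 times with vehicle. For miR-335 the 3p arm read 5.02 times the 5p arm with sulforaphane and 2.69 times with vehicle. For miR-32 it read 3.65 times with sulforaphane and 2.30 times with vehicle. Probes differ in affinity, so these quotients do not measure the relative abundance of the arms.

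Across the array, 256 precursors had both arms under the same name. In 10 of them both arms were above the floor on both arrays, in 44 the 5p arm alone was and in 31 the 3p arm alone. Of the 10, 2 (20.0%) had arms whose log2 ratios differed by 1 or more, miR-183 and miR-22, and 3 (30.0%) had ratios of opposite sign, miR-183, miR-22 and miR-335. Because miR-22 and miR-335 were chosen for this contrast, the shares are given as background and nothing is read from them. The 8 precursors other than miR-22 and miR-335 had a median absolute arm difference of 0.30, and their range was 0.10 to 1.17.

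miR-183, a member of a cluster known from sensory organs and tumours, had the widest gap of the 10. Its 5p arm read 5.81 with sulforaphane and 10.3 with vehicle, and its 3p arm read 10.6 with sulforaphane and 8.36 with vehicle, for an arm difference of -1.17. Like miR-22-5p, miR-183-5p was close to the floor, at 1.05 times with sulforaphane and 1.60 times with vehicle. The next gaps were smaller. They were 0.50 for miR-30e, 0.39 for let-7i, -0.31 for miR-423 and -0.30 for miR-151a, and both arms of each of these read higher with sulforaphane on the authors' scale. The arm with the smaller ratio in each was lower with sulforaphane under the median, summed, spike-in and small RNA scalings. The same held under quantile and cyclic loess normalization. Under spike-in scaling none of the 10 precursors had arms of opposite sign. In miR-32, outside the 10, the spike-in-scaled log2 ratio was -0.05 for the 5p arm and 0.62 for the 3p arm. In miR-29a, whose 3p arm is about as bright as miR-22-3p, the arms differed by 0.13. There the dim 5p arm read 12.0 with sulforaphane and 8.22 with vehicle, and the bright 3p arm read 214 with sulforaphane and 160 with vehicle. The vehicle value of miR-29a-5p was thus close to that of miR-335-5p, and its ratio had the opposite sign. This match is on the vehicle array alone. miR-542-3p and miR-944, nearest to miR-335-5p on both arrays and so alike in ratio, had log2 ratios of -0.26 and -0.52.

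**Figure D2:**
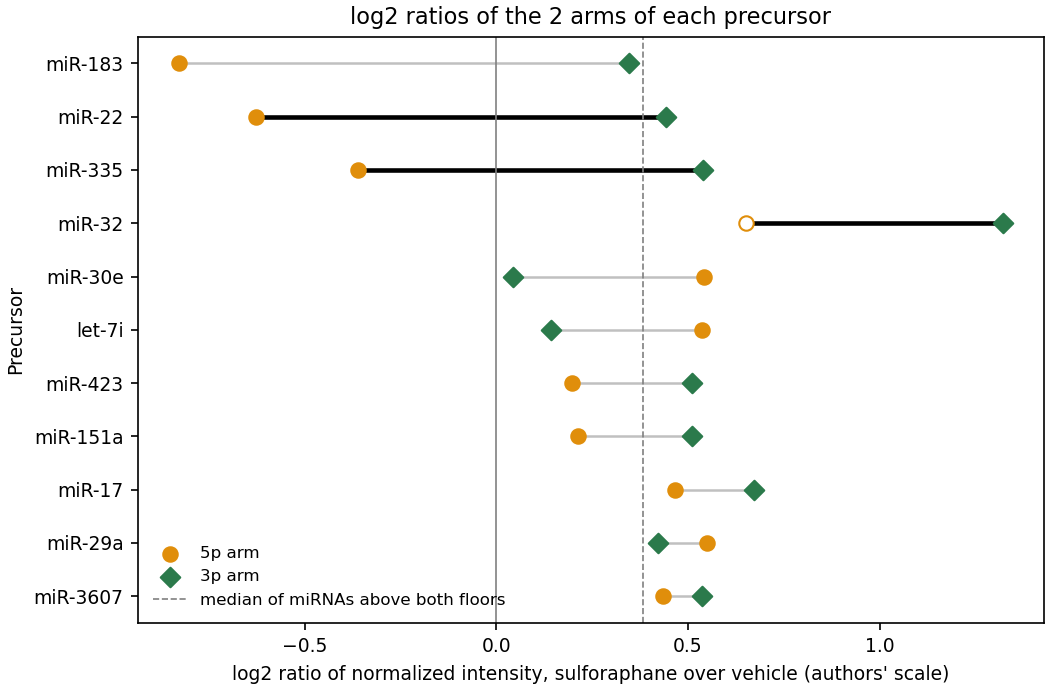
Sulforaphane-over-vehicle log2 ratio of the 5p arm (circles) and the 3p arm (diamonds) in the 10 precursors with both arms above the floor on both arrays, and in miR-32, whose open circle marks a 5p arm under the vehicle floor. The black lines of miR-22, miR-335 and miR-32 are 1.07, 0.90 and 0.67 long, and the dashed line is the median of 0.38.

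The lower ratio belonged to the arm that was dimmer on both arrays in 4 of the 10 precursors, miR-22 and miR-335 among them, and to the brighter arm in another 4. In 2 the arms changed their order of brightness between the arrays. The 168 miRNAs were split by mean brightness into 3 equal groups. On the authors' scale the 56 dimmest had 17 ratios below 0, the middle 56 had 11 and the 56 brightest had 1. These counts hold for that scale only, since the median of the 168 was -0.32 under spike-in scaling. The SD between miRNAs was 0.44 in the dimmest group, 0.44 in the middle one and 0.22 in the brightest. miR-22-5p and miR-335-5p belong to the dimmest group, miR-335-3p and miR-32-3p to the middle one and miR-22-3p to the brightest. The median log2 ratios of the groups were 0.28, 0.38 and 0.43, from dimmest to brightest. Nearer the floor, 32 of the 168 lay within 2 times the floor on both arrays, miR-22-5p and miR-335-5p among them. Of these 32, 15 (46.9%) had ratios below 0, and their ratios ran from -0.96 to 0.63 with a median of 0.03. Of the 136 beyond 2 times the floor on an array, 14 (10.3%) had ratios below 0. The choice of the 32 itself bounds their ratios. Because the floor was lower on the sulforaphane array, the middle of those bounds lies below 0. The contrast with the 136 is thus partly fixed by the choice, and nothing is read from it. The part of brightness in the arm differences was not tested.

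The 7 viral probes above the floor on both arrays had log2 ratios of -0.33 to 0.48, with 2 below 0. The ratio of miR-335-5p, at -0.36, was just beyond the lowest of these and that of miR-22-5p, at -0.63, was farther out. The ratio of miR-22-3p lay inside the viral range and that of miR-335-3p slightly above it. That of miR-32-3p, at 1.32, was well above. The arms were chosen for their ratios and the 7 probes for lying above the floor, so nothing is read from these positions.

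**Figure D3:**
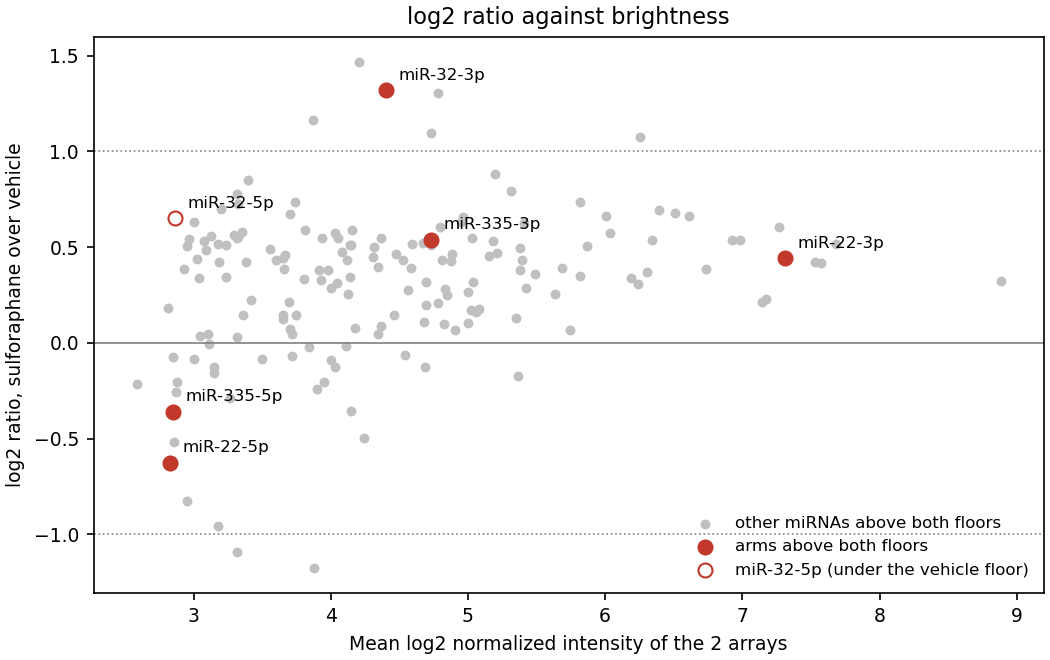
log2 ratio, sulforaphane over vehicle, against the mean log2 normalized intensity of both arrays for the 168 human miRNAs above the floor on both arrays (grey) and the arms (red; the open circle is miR-32-5p). Dotted lines mark 2-fold. Of the 29 ratios below 0 on the authors' scale, 17 belong to the 56 dimmest miRNAs, miR-22-5p and miR-335-5p among them. miR-32-3p stands near the top of the plot.

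The detected miRNAs nearest to each arm, by Euclidean distance over the log2 values of both arrays, were as follows. The nearest to miR-22-5p were miR-944 (distance 0.09, log2 ratio -0.52) and miR-335-5p itself (0.19). miR-335-5p had miR-542-3p (distance 0.08, log2 ratio -0.26) and miR-944 (0.11) beside it. For miR-335-3p they were miR-340-5p (distance 0.02, log2 ratio 0.51) and miR-374b-5p (0.08, log2 ratio 0.52). For miR-22-3p they were miR-1260a (distance 0.13, log2 ratio 0.60) and the maker's sequence miRPlus-A1086 (0.24, log2 ratio 0.23). miR-32-3p had no close neighbour: the nearest were miR-4324, at a distance of 0.30 with a log2 ratio of 1.47, and miRPlus-A1015, at 0.50 with a ratio of 1.09. With 2 arrays, such a distance compares 2 values only. Near miRNAs are therefore alike in ratio by construction, and nothing is read from their ratios.

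The seed that miR-32-5p shares with miR-25-3p and miR-92a-3p allowed a comparison within one target set. The sequences show where the family is alike (capitals) and where each member differs.
miR-32-5p: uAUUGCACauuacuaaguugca
miR-25-3p: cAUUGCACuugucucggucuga
miR-92a-3p: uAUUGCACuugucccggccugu
miR-92b-3p: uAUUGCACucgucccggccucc
miR-363-3p: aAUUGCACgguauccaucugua
miR-367-3p: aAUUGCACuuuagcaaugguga

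Of the 5 relatives, miR-25-3p and miR-92a-3p were above the floor on both arrays. miR-92a-3p, from a polycistronic cluster that MYC activates, was the brightest, at 26.6 with sulforaphane and 24.7 with vehicle (log2 ratio 0.11). miR-25-3p read 12.0 with sulforaphane and 8.99 with vehicle (0.42). miR-92b-3p was above the floor with sulforaphane alone (5.81 with sulforaphane and 6.08 with vehicle), where the floor was lower. miR-363-3p (0.504 with sulforaphane and 0.381 with vehicle) and miR-367-3p (0.339 with sulforaphane and 0.283 with vehicle) were below it on both arrays. On the authors' scale the bound of miR-32-5p, a log2 ratio of at least 0.51, lay above the ratios of both relatives detected on both arrays. From miR-25-3p (0.42) it lay less than the SD between spike-in probes of 0.20 away, and there was no replicate check.

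Other miRNAs known to repress BCL2L11 gave the setting for miR-32-5p. All 8 listed besides it were above the floor on both arrays, and 8 had ratios above 0 on the authors' scale, as did 139 of the 168 detected miRNAs (82.7%). None reached 2-fold, and their median log2 ratio was 0.61, beside 0.38 over the 168. miR-19a-3p had the highest of the 8 ratios, 0.79, and read 52.4 with sulforaphane and 30.2 with vehicle. It was followed by miR-93-5p (log2 ratio 0.74), miR-20a-5p (0.69), miR-106b-5p (0.68), miR-19b-3p (0.55), miR-17-5p (0.47), miR-25-3p and miR-92a-3p. Several of these share a transcript, so they are not independent of one another. No target mRNA was measured. Under spike-in scaling 2 of the 8 stayed above 0, with a median of -0.09, beside -0.32 over the 168.

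The miRNAs named with miR-335-5p as suppressors of breast cancer metastasis, miR-126-3p and miR-206, were each above the floor on 1 array. miR-126-3p read 8.69 with sulforaphane and 6.24 with vehicle. miR-206 read 1.80 with sulforaphane and 6.61 with vehicle, the vehicle value being barely above that array's floor of 6.44. All 3 thus lay within a short distance of the viral-probe floor on at least 1 array.

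The sign of an arm's own ratio depended on the scale. The ratios of miR-22-5p and miR-335-5p stayed below 0 and that of miR-32-3p above 0 under all 9 other settings of scale, background and low values. That of miR-22-3p was below 0 under spike-in scaling (-0.26) and cyclic loess (-0.02), and was 0 under quantile normalization. Those of miR-335-3p (-0.16) and miR-32-5p (-0.05) were below 0 under spike-in scaling alone. Under spike-in scaling, therefore, both arms of miR-22 and both arms of miR-335 read lower with sulforaphane, the 5p arm more so. The 41 spike-in probes above both floors centred on 0.68 ± 0.20 on the authors' scale (median log2 ratio, SD between probes), above the median of the detected miRNAs. Of the 9 settings, 5 are single factors per array that leave the arm difference as it is. Under the other 4 (quantile, cyclic loess, no background subtraction and the floor added) it stayed negative in all 3 precursors. Over all settings it ran from -1.07 to -0.84 for miR-22, from -0.90 to -0.70 for miR-335 and from -0.72 to -0.52 for miR-32.

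**Figure D4:**
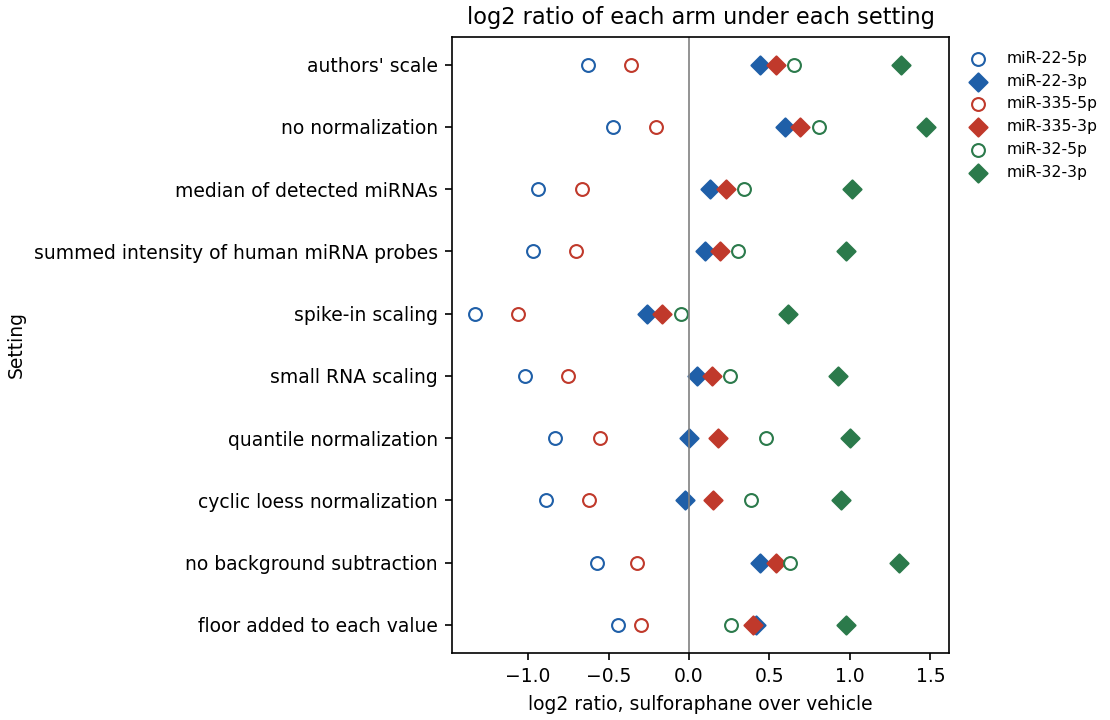
log2 ratio, sulforaphane over vehicle, of the 6 arms (open circles 5p, filled diamonds 3p, one colour per precursor) on the authors' scale and under 9 other settings. Scaling moves all arms together, and the 5p arm stays to the left of the 3p arm of its precursor in each row.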

How the data were processed

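Per the labels' protocols, RNA extracted with TRIzol and miRNeasy columns was Hy3-labelled and hybridised to miRCURY LNA arrays. Per the file headers, the deposited table holds each probe's intensity before and after background subtraction, a normalized value and a fold change. Dividing the deposited intensity by 124 (sulforaphane) or 111.5 (vehicle) gives the normalized value, a ratio, for all 2661 probes. The choice of factors, scanner and software is not given here. The deposited fold change equals sulforaphane over vehicle. The series value table matches to within 4.9e-08.

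Log2 ratios, floors and arm differences were computed with Python 3.11.15, numpy 2.4.6 and pandas 2.3.3. Quantile and cyclic loess normalization used limma 3.58.1 in R 4.3.3. Arms were paired where their names differed only in 5p or 3p. The members and lists were chosen with earlier results of these data known. Named besides the 6 arms are miRNAs sharing a seed, the 5 next widest arm differences, the 2 nearest miRNAs to each detected arm and the detected members of the lists. miR-29a, miR-3607, the undetected seed relatives, the markers and the other arms of miR-205 and miR-122 were described beyond that rule. RefSeq tables (GRCh38.p14) gave sequences, positions and host genes, and the files give no build. One of the lists is not reported here.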

Additional observations from a re-analysis of the deposited data

How the results depend on the processing

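There was 1 array per condition, so no replicate could be left out. No paired analysis was possible because each group held 1 array. Signal over background limits miR-22-5p, miR-335-5p and miR-32-5p most. A value is called moved here if it changed by more than 0.20, the SD between spike-in probes. In the order miR-22-5p, miR-22-3p, miR-335-5p, miR-335-3p, miR-32-5p and miR-32-3p, the log2 ratios were -0.94, 0.13, -0.67, 0.23, 0.34 and 1.01 after scaling to the median of detected miRNAs. They were -0.97, 0.10, -0.70, 0.19, 0.31 and 0.98 after scaling to summed intensity, -1.33, -0.26, -1.06, -0.16, -0.052 and 0.62 after spike-in scaling, and -1.02, 0.048, -0.75, 0.14, 0.26 and 0.93 after small RNA scaling. They were -0.84, 0.00, -0.55, 0.18, 0.48 and 1.001 after quantile normalization and -0.89, -0.024, -0.62, 0.15, 0.39 and 0.94 after cyclic loess. With the floor added to each value, miR-32-5p gave 0.26 and miR-32-3p 0.97. The arm difference of miR-22 was -0.84 after quantile normalization, -0.87 after cyclic loess and -0.86 with the floor added, under 2-fold in each. Those of miR-335 and miR-32 moved by less than 0.20 in the 4 settings that can change them.

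The count of precursors with an arm difference of 1 or more, 2 on the authors' scale, was 1 after quantile normalization and after cyclic loess, and 0 with the floor added. It was 0 with the floor at the 99th percentile, which left 1 precursor and 2 of the 6 arms, and 8 of 82 precursors with the floor at the median of all probes. The count with opposite signs, an alternative chosen after seeing the data, was 3 on the authors' scale. It was 7 after median, summed, quantile or cyclic loess scaling, 6 after small RNA scaling and 0 after spike-in scaling. With other floors it was 8 (90th percentile, 25 precursors), 0 (99th) and 30 (median of all probes). Counts of detected miRNAs at least 2-fold higher and lower, 6 and 2 on the authors' scale, were 2 and 4 after median scaling, 1 and 4 after summed scaling, 0 and 9 after spike-in scaling and 1 and 5 after small RNA scaling. They were 2 and 4 after quantile normalization, 1 and 4 after cyclic loess, 2 and 0 with the floor added, 1 and 0 with the floor at the 99th percentile, 20 and 35 with it at the median of all probes and 27 and 5 under a 1.5-fold rule. Without normalization 1 was lower. The cause of these shifts was not tested, beyond the single factor per array that moves all ratios alike.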
